A study of Rattus norvegicus with 23 samples.

Results

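The genes described here are Nr3c1, which encodes the glucocorticoid receptor, and 8 genes that the receptor is known to induce: Fkbp5, Zbtb16, Klf9, Hif3a, Tsc22d3, Dusp1, Sgk1 and Ddit4. They were taken by gene symbol, each matched 1 row, and together they make up 9 of the 19249 genes in the table. All 9 had a mean normalized count of at least 10 and were among the 14414 genes tested. RNA was sequenced from frozen lung of male rats after whole-body exposure on 4 days of week 1 and, following 3 days without exposure, on 3 days of week 2. The air group (n = 7) breathed filtered air. The low smoke group (n = 8) breathed eucalyptus smoke at a target carbon monoxide concentration of 10 ppm, and the high smoke group (n = 7) breathed it at 20 ppm. Each library came from 1 rat. Strain, age, the hour of tissue collection and the time since the last exposure are not given in the sources used here. In pieces of whole lung, fewer cells of a type and less RNA per cell cannot be told apart.

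The glucocorticoid receptor is a ligand-activated transcription factor held in the cytoplasm by heat shock protein chaperones until corticosterone, the main glucocorticoid of the rat, binds it. The bound receptor enters the nucleus and induces genes that limit inflammation, restrain growth signalling and adjust ion transport, and in lung it is known for its part in maturation and in the response to inhaled steroid drugs. Circulating corticosterone follows the time of day and rises with handling stress, and several of these targets are also induced by other signals, such as growth factors, hypoxia and cyclic AMP.

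The depth was 8484131 to 12055512 read equivalents per library. High smoke replicates 1, 3 and 7 scored 51.5, 41.7 and 36.5 on the first principal component of all genes tested, which carried 19.7% of the variance, and the other 4 high smoke libraries scored 0.3 to 8.8. The changes of the 9 genes and of the named list genes in high smoke against air are therefore also given without these 3 libraries, which leaves 4 high smoke rats. The 3 libraries were picked by scores from these same genes, so leaving them out favours smaller changes and fewer calls. Loss of a call without them is therefore not an independent check. All 10 listed markers of alveolar type 2 cells, the surfactant makers, were measured. Their summed normalized count ran from 190582 to 240628 in air with a median of 212189, from 183792 to 252326 in low smoke with a median of 232102, and from 232409 to 301439 in high smoke with a median of 249437. A sum weighs the most abundant markers most. The median log2 change of the 10 markers in high smoke against air was 0.05, and 6 did not pass by limma.

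Promoter windows are shown for Dusp1, Ddit4 and Fkbp5, the genes on which the covariation results below turn. RefSeq (build GRCr8) gave windows of 250 bases before to 50 bases after a transcript start for 8 of the 9 genes, 14 windows in all, and Zbtb16 was not matched. In the Dusp1 window the capitals mark TGACGTCA, the full cyclic AMP response element.
Dusp1, chr10:17184603-17184902, plus strand: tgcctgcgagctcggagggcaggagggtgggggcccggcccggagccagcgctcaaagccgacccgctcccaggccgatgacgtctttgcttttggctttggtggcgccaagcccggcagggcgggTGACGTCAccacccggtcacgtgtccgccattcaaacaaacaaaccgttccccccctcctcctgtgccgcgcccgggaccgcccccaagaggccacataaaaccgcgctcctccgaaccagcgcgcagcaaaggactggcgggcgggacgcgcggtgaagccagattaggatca
Ddit4, chr20:28436988-28437287, minus strand: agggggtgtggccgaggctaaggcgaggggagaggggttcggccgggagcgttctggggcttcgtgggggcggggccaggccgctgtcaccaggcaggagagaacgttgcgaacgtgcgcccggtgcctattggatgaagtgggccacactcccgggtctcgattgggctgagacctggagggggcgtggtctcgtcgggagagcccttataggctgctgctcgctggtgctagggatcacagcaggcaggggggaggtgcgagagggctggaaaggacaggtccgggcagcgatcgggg
Fkbp5, chr20:6543506-6543805, minus strand: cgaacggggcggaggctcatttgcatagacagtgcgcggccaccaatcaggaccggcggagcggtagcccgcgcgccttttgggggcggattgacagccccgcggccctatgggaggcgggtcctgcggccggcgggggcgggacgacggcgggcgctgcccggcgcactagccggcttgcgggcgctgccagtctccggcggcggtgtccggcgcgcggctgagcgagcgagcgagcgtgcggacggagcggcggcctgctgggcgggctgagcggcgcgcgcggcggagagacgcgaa
TGACGTCA, searched exactly on both strands, lay 124 bases before the Dusp1 start. It was in 1 of the 14 windows and in 1.83% of all 33469 windows. The glucocorticoid response element was searched on both strands as AGAACA and TGTTCT set 3 bases apart, with at most 2 mismatches over the 12 fixed letters. It was in 0 of the 14 windows and in 1.87% of all windows. One such hexamer alone, TGTTCT or its complement AGAACA, which the full element contains, was in 0 of the 14 windows and in 20.7% of all windows. These matches describe letters in short windows only, and glucocorticoid receptor sites outside these windows were not searched.

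None of the 9 genes passed the test between any of the 3 pairs of groups. For high smoke against air, 0 of 9 had an adjusted p below 0.05 (limma on log2(normalized count + 1), Benjamini-Hochberg over all genes tested), against 16.3% of all genes (1327 higher and 1016 lower, or 894 higher and 1797 lower with equal library totals). In the low smoke comparison with air 0 of 9 passed, against 0% of all genes, and in high smoke against low smoke 0 of 9 passed, against 6.78% (548 higher and 429 lower, or 414 and 633 with equal totals). At an unadjusted p below 0.05 by limma the counts were 1 of 9 (Sgk1, against 30.7% of all genes), 2 of 9 (Dusp1 and Klf9, both lower, against 6.4% with 2.68% lower and 3.72% higher) and 2 of 9 (Ddit4 and Sgk1, against 25.6%). An exact rank-sum test across all genes called 0 of 9 in each comparison. That test called fewer genes in all, 746 in high smoke against air and 183 in high smoke against low smoke. The fitted change was below 0 for 4, 6 and 1 of the 9 genes, where 50.4%, 48.9% and 49.8% of all genes lay below 0. The median log2 change of the 9 genes was 0.07, -0.11 and 0.20. Dusp1, Hif3a, Ddit4 and Klf9 had been picked out in an earlier description of these data for small p in low smoke against air. The counts, signs and median of that comparison are therefore not independent support. Without high smoke replicates 1, 3 and 7 the log2 change in high smoke against air was -0.01 for Nr3c1, 0.00 for Fkbp5, 0.69 for Zbtb16, -0.19 for Klf9 and -0.10 for Hif3a. It was 0.09 for Tsc22d3, -0.45 for Dusp1, 0.05 for Sgk1 and -0.19 for Ddit4. Without these 3 libraries 0 of 9 passed in high smoke against air, where 124 of all genes did. The 3 comparisons came from 1 fit, and any 2 of them share a group, so their values are not independent. High smoke against low smoke is the difference of the other 2. Several of the genes varied widely among rats of the same group, and certain genes varied together.

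**Figure D1:**
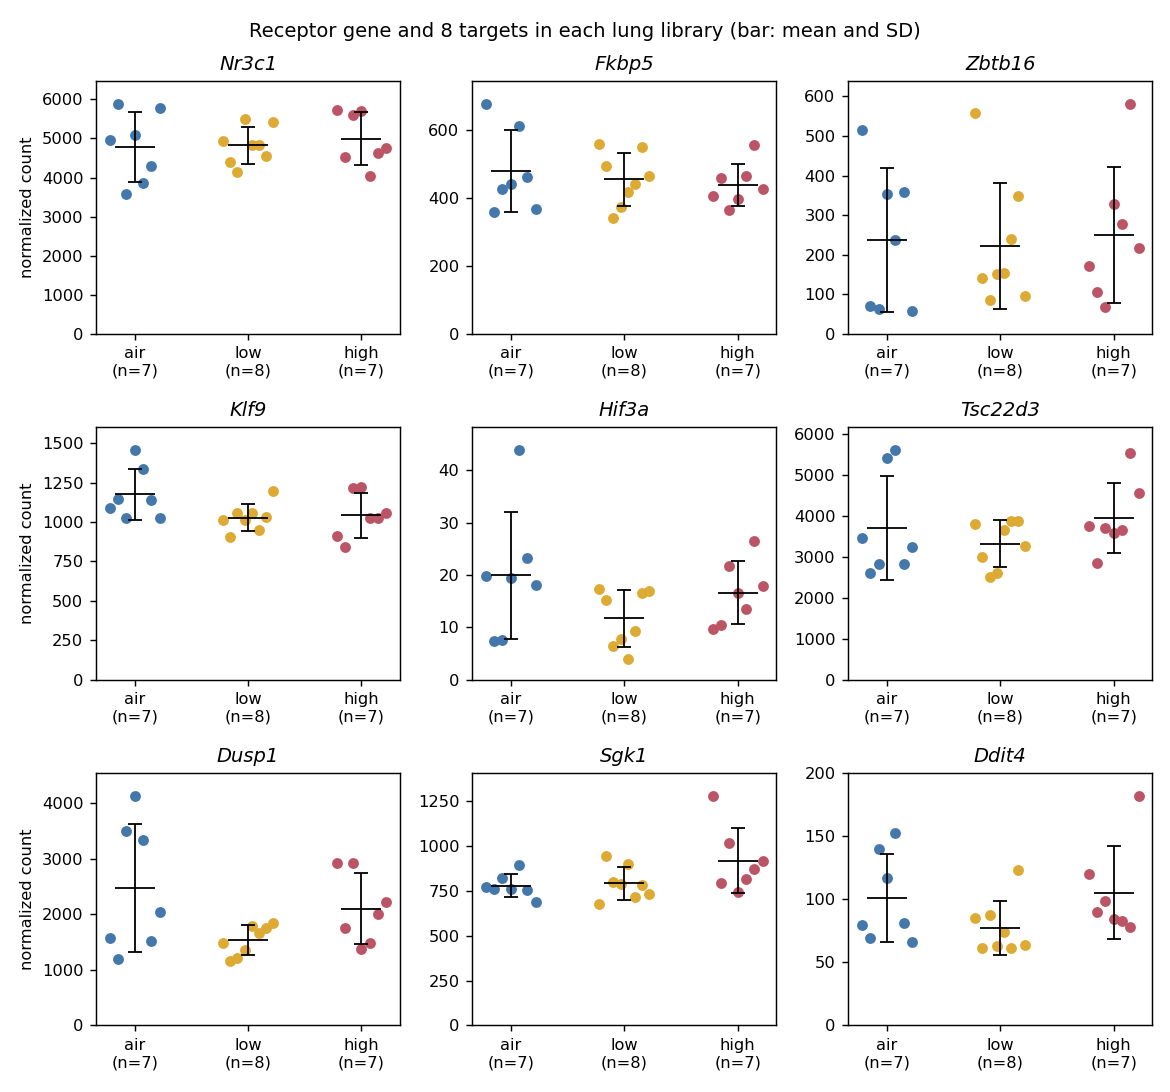
Normalized count of the receptor gene and its 8 targets, 1 point per rat in the air (n = 7), low smoke (n = 8) and high smoke (n = 7) groups, with a bar at the mean and whiskers of 1 SD, each vertical axis starting at 0. The groups overlap in every panel, and Zbtb16 runs from 57.2 to 581 over the 22 rats.

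Nr3c1, the receptor gene (rn6 chr18:31728373-31749647, minus strand), overlapped widely between the groups. Its normalized count had a lowest, median and highest value of 3574, 4962 and 5881 in air, 4135, 4836 and 5499 in low smoke, and 4030, 4754 and 5726 in high smoke. The 3 ranges lay nearly on top of each other, and the low smoke range fell wholly inside the air range. The mean was 4779 ± 900 (SD, n = 7) in air, 4824 ± 471 (SD, n = 8) in low smoke and 4994 ± 676 (SD, n = 7) in high smoke. The log2 change was 0.07 in high smoke against air, with an unadjusted 95% interval of -0.14 to 0.29 and an adjusted p of 0.67 in limma. Low smoke against air gave 0.03, with an interval of -0.18 to 0.24 (adjusted p = 0.974 in limma).

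Fkbp5 encodes a cochaperone that lowers the receptor's affinity for its ligand and so closes a feedback loop (rn6 chr20:7976713-8019020, minus strand). Its normalized count ran from 359 over a median of 440 to 676 in air, from 341 over 452 to 559 in low smoke, and from 363 over 427 to 555 in high smoke. The highest values of all belonged to air replicates 1 and 5, at 676 and 611, and the rest of the air rats lay among the smoke rats. The means were 478 ± 121 (SD, n = 7), 455 ± 78.3 (SD, n = 8) and 439 ± 61.9 (SD, n = 7). The log2 change was -0.10 in high smoke against air, with an interval of -0.37 to 0.18 (adjusted p = 0.66 in limma). Low smoke against air gave -0.05 (adjusted p = 0.968 in limma).

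Zbtb16 encodes PLZF, a zinc finger transcription factor that glucocorticoids are known to induce strongly (rn6 chr8:52985313-53146953, minus strand). Its normalized count spanned 57.2 to 516 in air with a median of 237, 86.5 to 558 in low smoke with a median of 152, and 67.2 to 581 in high smoke with a median of 216. Each group thus held both low and high rats. In air, replicates 2, 3 and 7 were at 70.5, 63.7 and 57.2 and the other 4 rats at 237 to 516, with no air rat between. The highest low smoke rat was replicate 1 at 558 and the highest high smoke rat was replicate 6 at 581. The group means were 237 ± 181 (SD, n = 7), 222 ± 160 (SD, n = 8) and 250 ± 172 (SD, n = 7). The log2 change in high smoke against air was 0.25, and its interval of -0.82 to 1.33 was the widest of the 9 genes in that comparison (adjusted p = 0.779 in limma). Without high smoke replicates 1, 3 and 7, which include the lowest rat of the group, it was 0.69 (adjusted p = 0.662 in limma).

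Klf9 encodes a Krüppel-like transcription factor (rn6 chr1:240908483-240933198, plus strand). Its normalized count was 1024 to 1459 in air with a median of 1143, 908 to 1199 in low smoke with a median of 1024, and 842 to 1226 in high smoke with a median of 1028. In low smoke 7 of 8 rats lay below the air median and 4 lay below every air rat. The means were 1176 ± 163 (SD, n = 7), 1029 ± 86.4 (SD, n = 8) and 1044 ± 143 (SD, n = 7). The log2 change was -0.19 in low smoke against air, with an interval of -0.36 to -0.01 (adjusted p = 0.769 in limma), and -0.17 in high smoke against air, with an interval of -0.36 to 0.01 (adjusted p = 0.195 in limma).

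Hif3a encodes a hypoxia-inducible factor subunit with forms that restrain the other members of its family (rn6 chr1:78976318-78997869, minus strand). It had low counts: 7.37 to 43.9 in air with a median of 19.4, 3.9 to 17.4 in low smoke with a median of 12.3, and 9.63 to 26.4 in high smoke with a median of 16.5. All 8 low smoke rats lay below the air median, but air replicates 2 and 3, at 7.37 and 7.56, lay within the low smoke range. The means were 19.9 ± 12.2 (SD, n = 7), 11.7 ± 5.42 (SD, n = 8) and 16.6 ± 6.03 (SD, n = 7). In low smoke against air the log2 change was -0.64, with an interval of -1.35 to 0.07 (adjusted p = 0.782 in limma). The added count of 1 shrinks the fitted changes of genes at this level.

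Tsc22d3 encodes GILZ, a leucine zipper protein that mediates anti-inflammatory effects of glucocorticoids (rn6 chrX:111884295-111887906, minus strand). Its normalized count ran from 2597 to 5614 in air with a median of 3232, from 2508 to 3886 in low smoke with a median of 3466, and from 2843 to 5526 in high smoke with a median of 3714. Air replicates 4 and 5, at 5413 and 5614, and high smoke replicate 6, at 5526, stood above the other rats. The means were 3709 ± 1267 (SD, n = 7), 3324 ± 570 (SD, n = 8) and 3944 ± 855 (SD, n = 7). The log2 change was 0.13 in high smoke against air, with an interval of -0.22 to 0.47 (adjusted p = 0.644 in limma), and -0.11 in low smoke against air (adjusted p = 0.94 in limma).

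Dusp1 encodes a phosphatase that switches off MAP kinases (rn6 chr10:16970626-16973418, plus strand). Its normalized count was 1202 to 4132 in air with a median of 2041, 1154 to 1838 in low smoke with a median of 1569, and 1374 to 2927 in high smoke with a median of 2007. All 8 low smoke rats lay below the air median, yet only 1 lay below every air rat. Air replicates 3, 4 and 5 were at 3497, 4132 and 3332, above every smoke rat, and the other 4 air rats were at 1202 to 2041. The means were 2471 ± 1158 (SD, n = 7), 1532 ± 269 (SD, n = 8) and 2099 ± 635 (SD, n = 7). In low smoke against air the log2 change was -0.57, a fold of 0.67, with an interval of -1.03 to -0.11 (adjusted p = 0.724 in limma). Dusp1, Hif3a, Ddit4 and Klf9 had been picked out in an earlier description of these data for small p in this same comparison, so their low values there are not independent support. Between high and low smoke the log2 difference was 0.42 (adjusted p = 0.244 in limma), and it was 0.12 without high smoke replicates 1, 3 and 7.

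Sgk1 encodes the serum and glucocorticoid regulated kinase, which acts on epithelial sodium transport (rn6 chr1:24185435-24302298, minus strand). Its normalized count was 689 to 893 in air with a median of 762, 675 to 945 in low smoke with a median of 786, and 747 to 1282 in high smoke with a median of 874. High smoke replicates 1, 3 and 7, at 1282, 1016 and 915, were above every air rat, while the other 4 high smoke rats, at 747 to 874, lay within the air range. The means were 780 ± 63.6 (SD, n = 7), 793 ± 92 (SD, n = 8) and 920 ± 182 (SD, n = 7). The log2 change in high smoke against air was 0.22, with an interval of 0.02 to 0.42 (adjusted p = 0.123 in limma), the smallest adjusted p of the 9 genes in that comparison. Without high smoke replicates 1, 3 and 7 it was 0.05 (adjusted p = 0.845 in limma). Sgk1 correlated with the first principal component over the 22 libraries (Pearson r = 0.69, permutation p = 0.00139, adjusted p = 0.0375 over 27 relations). The Spearman rho was 0.36 (permutation p = 0.0977, adjusted p = 0.767), and r was 0.25 without the 2 libraries farthest from the median component score, so the relation rests on those libraries.

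Ddit4 encodes REDD1, an inhibitor of the growth kinase complex mTORC1 (rn6 chr20:29509289-29511382, minus strand). Its normalized count was 66.2 to 152 in air with a median of 80.9, 61 to 123 in low smoke with a median of 69, and 78.2 to 182 in high smoke with a median of 89.7. Every high smoke rat lay above the low smoke median, and 6 of 7 lay within the low smoke range. The means were 101 ± 35.1 (SD, n = 7), 77.3 ± 21.3 (SD, n = 8) and 105 ± 36.7 (SD, n = 7). Between high and low smoke the log2 difference was 0.42, with an interval of 0.01 to 0.83 (adjusted p = 0.189 in limma), and it was 0.15 without high smoke replicates 1, 3 and 7. The change in low smoke against air was -0.35 (adjusted p = 0.811 in limma).

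**Figure D2:**
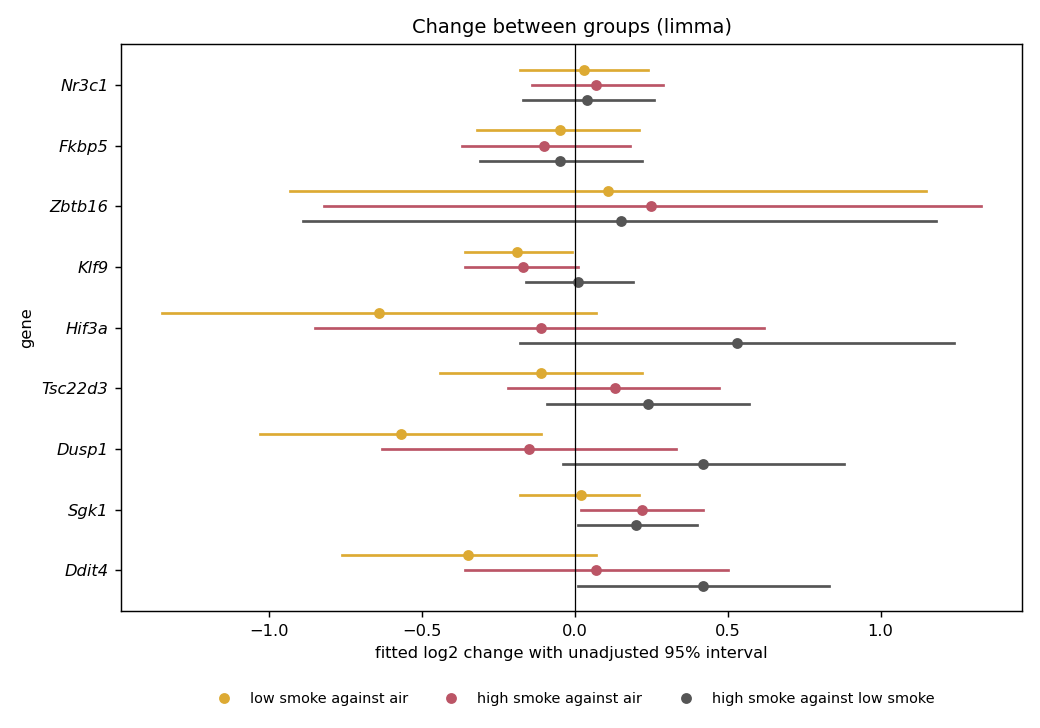
Fitted log2 change of each gene (horizontal axis) in low smoke against air, high smoke against air and high smoke against low smoke, with unadjusted 95% intervals from limma. The Zbtb16 interval in high smoke against air runs from -0.82 to 1.33 and the Nr3c1 interval from -0.14 to 0.29.

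The 9 genes differed widely in how much they varied among rats of the same group. The within-group SD on the log2 scale was 1.11 for Zbtb16, larger than for 99% of all genes tested and for 99.9% of the genes within 1 log2 unit of its level. It was 0.49 for Dusp1 and 0.34 for Tsc22d3, above 99.3% and 96.4% of the genes at their own levels. Hif3a had an SD of 0.70, above 97% of all genes but 85.3% of those at its own low level. Ddit4, at 0.42, and Fkbp5, at 0.27, were above 89.6% and 85.4% of the genes at their levels. Nr3c1 (0.21), Sgk1 (0.19) and Klf9 (0.17) were below the median of all genes, 0.23, though at their own levels they stood at percentiles 75.8, 65.6 and 58.3. The highest rat exceeded the lowest 10.2-fold for Zbtb16 and 11.3-fold for Hif3a, against 1.65-fold for Nr3c1.

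**Figure D3:**
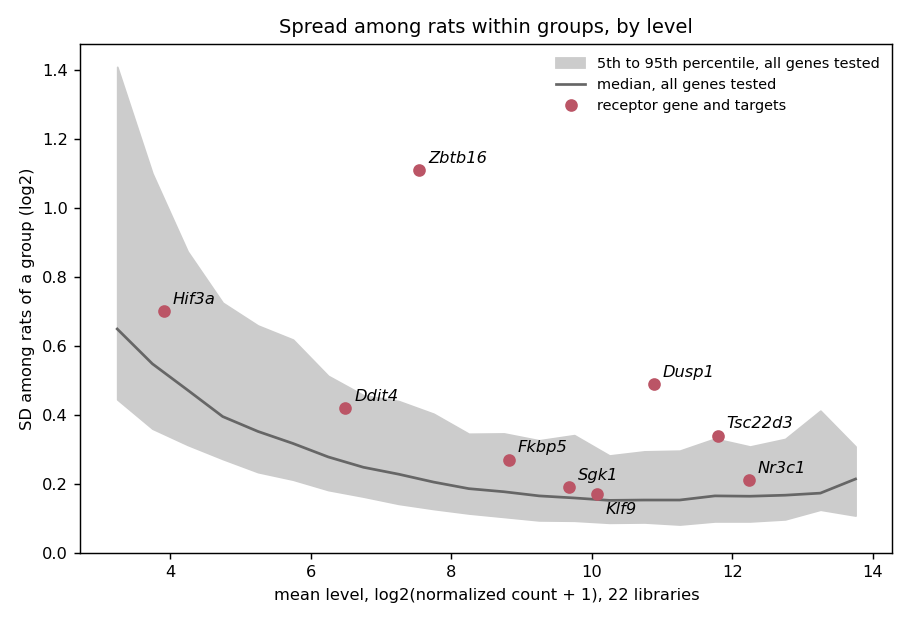
SD among rats of a group on the log2 scale (vertical axis) against mean level over 22 libraries (horizontal axis), with the receptor gene and targets as points, the median of all genes tested as a line and the 5th to 95th percentile as a grey band. Zbtb16 at 1.11 and Dusp1 at 0.49 stand above the band, and Tsc22d3 at 0.34 lies just above its edge.

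The variation was shared within certain pairs of genes. Over the 22 libraries, 36 pairs were compared on log2(normalized count + 1), and 24 correlations were positive. Fkbp5 and Zbtb16 had a Pearson r of 0.70 (permutation p = 0.00025, adjusted p = 0.009 over the 36 pairs) and a Spearman rho of 0.67 (permutation p = 0.00088, adjusted p = 0.0317). Taken as deviations from the group means, r was 0.73 (adjusted permutation p = 0.0176). It was 0.75 within air, 0.74 within low smoke and 0.70 within high smoke, and 0.70 without the 2 libraries farthest from the median on the x axis. This was the 1 pair of 36 past the threshold by Pearson r, by Spearman rho and within groups. The rats high for both were air replicate 1 (Fkbp5 676, Zbtb16 516), low smoke replicate 1 (559 and 558) and high smoke replicate 6 (555 and 581). Zbtb16 also correlated with read equivalents per library at r = 0.46 (permutation p = 0.0309, adjusted p = 0.417 over 27 relations), and the part of depth in its spread was not tested.

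A further 5 pairs passed by Pearson r but not by rho. Dusp1 and Ddit4 had r = 0.67 (permutation p = 0.00057, adjusted p = 0.0103) and rho = 0.57 (permutation p = 0.00713, adjusted p = 0.0856). Within air their r was 0.85, against 0.19 within low smoke and 0.49 within high smoke. It was 0.62 without the 2 farthest libraries. The other 4 pairs were Hif3a with Tsc22d3 (r = 0.60), Dusp1 with Tsc22d3 (r = 0.58), Hif3a with Fkbp5 (r = 0.57) and Tsc22d3 with Zbtb16 (r = 0.56), each with an adjusted permutation p of 0.0403. Tsc22d3 was thus in 3 of these pairs, with partners from both the Fkbp5 and Zbtb16 pair and the Dusp1 and Ddit4 pair. Dusp1 and Zbtb16 themselves had r = -0.07 (permutation p = 0.758, adjusted p = 0.849). The receptor gene had r between -0.38, with Fkbp5, and 0.11, with Klf9, and no pair with Nr3c1 passed.

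**Figure D4:**
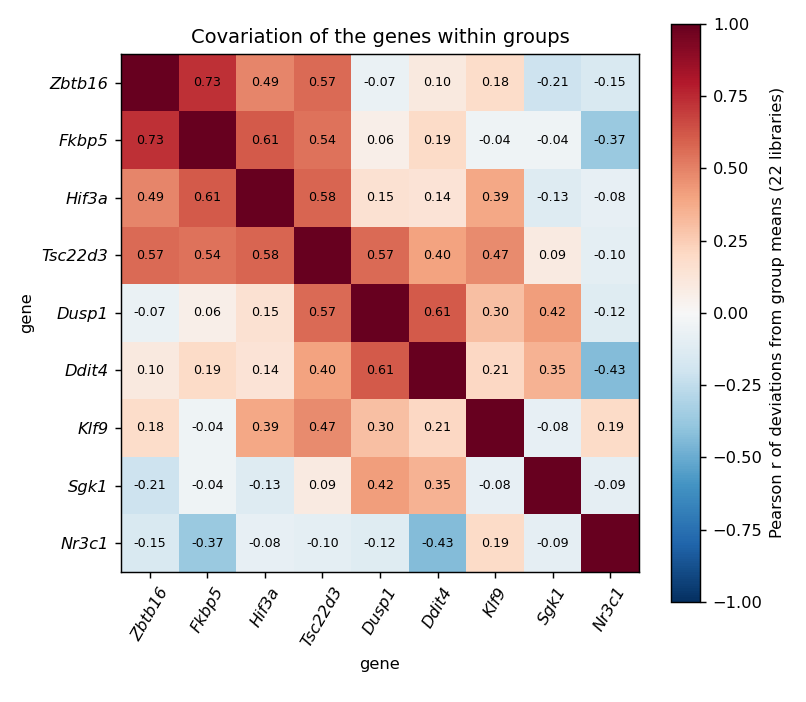
Pearson r between the genes after the group mean was removed, over 22 libraries, with the value printed in each cell and red for positive r. Fkbp5 and Zbtb16 reach 0.73 and Dusp1 and Ddit4 reach 0.61, while the row of the receptor gene holds r from -0.43 to 0.19.

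Dusp1 followed the immediate early genes, which cells switch on within minutes of a stimulus. The mean of 26 such genes, among them Fos, Jun, Egr1 and Nr4a1 and none of the 9 genes, had r = 0.95 with Dusp1 over the 22 libraries. The permutation p was 1e-05, the smallest that the resamples can give, and the adjusted p was 0.00018 over 18 relations. The 9 relations in this family with a mean of clock genes are not read here, since that list joins genes of opposite daily phase. The Spearman rho was 0.93 (permutation p = 1e-05, adjusted p = 0.00018). After the group means were removed r was 0.94, and within the air, low smoke and high smoke groups it was 0.98, 0.80 and 0.91. Without the 2 farthest libraries it was 0.92. Air replicates 3, 4 and 5, the rats highest for Dusp1, had immediate early means of 0.41, 0.59 and 0.40 on the log2 scale relative to the mean of all libraries. The other 4 air rats were at -0.30 to -0.10, and the low smoke rats were at -0.29 to 0.03. Of the 26 genes, 20 had a fitted change below 0 in low smoke against air, with a median of -0.22. None of the 26 was called by limma, 7 having an unadjusted p below 0.05. Among all genes 48.9% lay below 0 in that comparison, 0% were called and 6.4% had an unadjusted p below 0.05. The part of this shared variation in the low smoke values of Dusp1 was not tested.

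Ddit4 also tracked the immediate early mean, with r = 0.69 (permutation p = 0.00048, adjusted p = 0.00432) and rho = 0.60 (permutation p = 0.00437, adjusted p = 0.0262). Its r was 0.65 within groups (adjusted permutation p = 0.0498) and 0.66 without the 2 farthest libraries. Within air r was 0.89, within low smoke 0.26 and within high smoke 0.50. Tsc22d3 had r = 0.61 (permutation p = 0.00247, adjusted p = 0.0148) and rho = 0.64 (permutation p = 0.00194, adjusted p = 0.0175), and 0.61 within groups (adjusted permutation p = 0.0954). Its r was 0.71 without the 2 farthest libraries, 0.73 within air, 0.94 within low smoke and 0.07 within high smoke. For both genes the difference between groups was not tested. Fkbp5 (r = 0.20, permutation p = 0.373) and Zbtb16 (r = 0.05, permutation p = 0.813) did not pass.

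**Figure D5:**
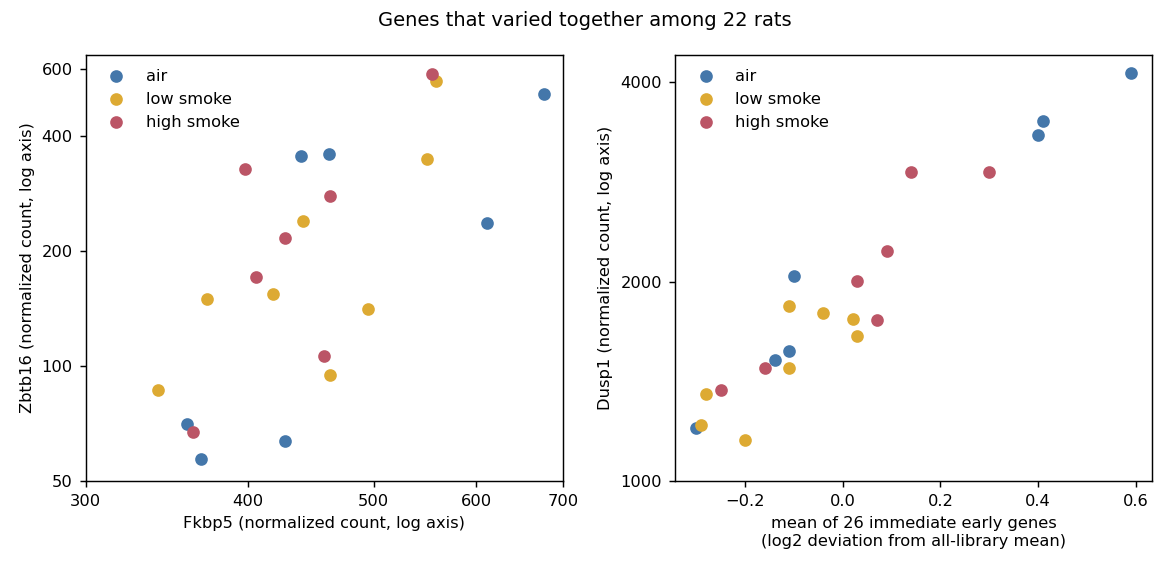
Left, normalized count of Zbtb16 against Fkbp5 on log axes. Right, normalized count of Dusp1 on a log axis against the mean log2 deviation of 26 immediate early genes, 1 point per rat coloured by group. The points rise together in both panels (r = 0.70 and 0.95), and air replicates 3, 4 and 5 lie at the upper right of the second.

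Among 12784 other genes ranked by Pearson r over the 22 libraries, given as a description, the genes most like each of the 9 differed. Nearest to Nr3c1 were Pum2, which encodes an RNA-binding repressor of translation (r = 0.96), Tpp2, a peptidase (r = 0.94), and Tnpo1, a nuclear import receptor (r = 0.93). Nearest to Dusp1 were Zfp36, which encodes an mRNA decay factor and is itself a known glucocorticoid target (r = 0.92), Egr1 (r = 0.88) and Ccn1 (r = 0.85). Of these, Egr1 and Ccn1 belong to the immediate early list. TGACGTCA was not among the letters of the Zfp36, Egr1 and Ccn1 windows. Nearest to Zbtb16 were Fgd5 (r = 0.74), Rapgef1 (r = 0.72) and Dip2a (r = 0.69). Nearest to Fkbp5 were Pear1 (r = 0.75), Ace3 (r = 0.74) and Acer2, an alkaline ceramidase (r = 0.74). Acer2 was also second for Tsc22d3 (r = 0.78), after Slc35e4 (r = 0.81) and level with Entr1 (r = 0.78). Among those nearest to Hif3a were Fmo2, which encodes a flavin-containing monooxygenase (r = 0.73), and Gucy1a1, a subunit of the nitric oxide receptor (r = 0.66). Klf9 was nearest to Txlng (r = 0.73), Gucy1a1 (r = 0.70) and Nr3c2 (r = 0.69), the last encoding the mineralocorticoid receptor, which also binds corticosterone. Ddit4 was nearest to Depp1 (r = 0.80), Dctn2 (r = 0.76) and Zfp3 (r = 0.74), and Sgk1 to Pnp (r = 0.84), Ap2m1 (r = 0.84) and Lmf2 (r = 0.83).

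The 8 targets were also averaged after each was standardized over the 22 libraries. The highest rats were air replicate 5, at 1.47 SD units with 8 of 8 targets above their own median, air replicate 4 at 1.01 and high smoke replicate 6 at 0.71. The lowest were air replicate 2 at -0.88, low smoke replicate 3 at -0.86 and low smoke replicate 4 at -0.80, the last with 0 of 8 targets above their median. Air thus held both the highest and the lowest rat. The genes most like this mean were Tbc1d8 (r = 0.82), Depp1 (r = 0.79), Slc35e4 (r = 0.78) and Sgsm3 (r = 0.75), followed by Kl (r = 0.72), Hyal2 (r = 0.71), S1pr1 (r = 0.71), Klf15 (r = 0.70), Pald1 (r = 0.70) and Ccdc117 (r = 0.70). Klf15, a transcription factor gene that glucocorticoids induce, was also on the list of other targets.

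Of 34 other known glucocorticoid targets tested, 3 rose and 1 fell in high smoke against air by limma, where 9.21% of all genes rose and 7.05% fell. With equal library totals 2 rose and 3 fell, and with array weights 2 rose and 2 fell. Anxa1, whose product annexin A1 carries anti-inflammatory effects of glucocorticoids, rose 1.46-fold from 16789 ± 3091 (SD, n = 7) to 25498 ± 9778 (SD, n = 7; adjusted p = 0.0352 in limma). Sesn1 rose by 0.31 on the log2 scale (adjusted p = 0.0128) and Arrdc2 by 0.42 (adjusted p = 0.0308). Foxo1, a transcription factor gene of fasting metabolism, fell from 807 ± 101 (SD, n = 7) to 559 ± 116 (SD, n = 7), a log2 change of -0.55 (adjusted p = 0.00249 in limma). The median log2 change of the list was 0.00, and the remaining 30 did not pass. Low smoke against air gave 0 of 34 that passed by limma, 2 had an unadjusted p below 0.05 and 22 lay below 0, with a median of -0.06. In that comparison 0% of all genes passed, 6.4% had an unadjusted p below 0.05 and 48.9% lay below 0. Between high and low smoke Bcl6 and Sesn1 rose, by 0.36 and 0.27, and Foxo1 fell by 0.48, where 3.8% of all genes rose and 2.98% fell, with adjusted p of 0.042, 0.047 and 0.0185 in limma. Without high smoke replicates 1, 3 and 7, 0 of the 34 passed in any comparison. All genes called then numbered 124 in high smoke against air, 1 in low smoke against air and 0 between high and low smoke. Against air, Foxo1 was then at -0.30 (adjusted p = 0.114 in limma), Anxa1 at 0.22, Arrdc2 at 0.29 and Sesn1 at 0.16. Against low smoke, Bcl6 was then at 0.30, Sesn1 at 0.11 and Foxo1 at -0.24.

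Genes of the machinery around the receptor were counted next. Of 14 chaperone and cofactor genes, Dnaja1, which encodes a heat shock cochaperone, rose by 0.71 on the log2 scale in high smoke against air (adjusted p = 0.0238 in limma), and the other 13 did not pass, where 16.3% of all genes did. At an unadjusted p below 0.05 there were 7 of the 14, against 30.7% of all genes. Ncoa2, a receptor coactivator, fell by 0.52 in high smoke against low smoke (adjusted p = 0.0361 in limma), and was at -0.26 without high smoke replicates 1, 3 and 7 (adjusted p = 0.775 in limma). Of 5 genes of ligand handling, Hsd11b1, which encodes the enzyme that regenerates active corticosterone, rose 1.38-fold from 810 ± 73.8 (SD, n = 7) in air to 1161 ± 389 (SD, n = 7) in high smoke (adjusted p = 0.0371 in limma). Hsd11b1 was at a log2 change of 0.14 without high smoke replicates 1, 3 and 7 (adjusted p = 0.646), and Dnaja1 at 0.51 (adjusted p = 0.321).

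Genes that act beside the targets were also counted in high smoke against air, where 9.21% of all genes rose and 7.05% fell. Of 9 regulators of mTORC1, the complex that REDD1 inhibits, 4 rose: Akt1s1 by 0.58 and Rptor by 0.48, which encode subunits, Rheb by 0.52, its activating GTPase, and Sesn2 by 0.39, an inhibitor. Their adjusted p were 0.00281, 0.0189, 0.00448 and 0.00187 in limma. Of 6 relatives and partners of SGK1, Scnn1g, a sodium channel subunit gene, rose by 0.57 and Nedd4l, the ligase that removes that channel, fell by 0.38 (adjusted p = 0.00329 and 0.0152 in limma). Of 10 other dual specificity phosphatases, Dusp7 and Dusp10 rose, by 0.67 and 0.39, and Dusp16 fell by 0.35 (adjusted p = 0.0222, 0.0397 and 0.0205 in limma). Of 9 relatives of TSC22D3 and KLF9, Klf16 rose by 0.44 and Klf3 fell by 0.26 (adjusted p = 0.0198 and 0.0449 in limma). Of 9 hypoxia pathway genes, Hif1an, which encodes an oxygen sensing inhibitor of the pathway, rose by 0.39 (adjusted p = 0.0142 in limma). Among 16 clock genes, Cry2 rose by 0.39 and Clock fell by 0.35 (adjusted p = 0.00867 and 0.00986 in limma). Of the 26 immediate early genes Jund rose by 0.52 (adjusted p = 0.00394 in limma). None of these genes passed without high smoke replicates 1, 3 and 7, where 124 of all genes did, in place of 2343. Their changes were then 0.39 for Cry2, 0.39 for Klf16, 0.38 for Jund, 0.41 for Akt1s1, 0.32 for Rheb, 0.29 for Scnn1g, 0.25 for Hif1an and 0.24 for Sesn2. They were 0.21 for Dusp7, 0.18 for Dusp10, 0.18 for Rptor, -0.16 for Klf3, -0.19 for Nedd4l, -0.24 for Dusp16 and -0.29 for Clock.

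Cell type markers were counted as well, and 0 were called by limma in low smoke against air, where 0% of all genes were called. In high smoke against air 9.21% of all genes rose and 7.05% fell. There 3 of 8 smooth muscle markers rose, and their summed normalized count had medians of 16664, 16875 and 21987 in the air, low smoke and high smoke groups. Of the 10 alveolar type 2 markers 3 rose and 1 fell, of 8 alveolar type 1 markers 2 rose, and of 7 fibroblast markers 2 rose. Of 9 endothelial markers 1 rose and 1 fell, and 1 of 6 neutrophil and 1 of 6 B cell markers rose. Of 7 airway and 7 macrophage markers 1 each fell, and of 8 T and NK cell and 2 adipocyte markers 0 passed. These marker counts were not taken without high smoke replicates 1, 3 and 7. The part of these cell types in the results above was not tested. Markers of heart muscle, which in rats also forms the sleeve of the pulmonary veins, varied from rat to rat. In low smoke against air 48.9% of all genes lay below 0 and 6.4% had an unadjusted p below 0.05. All 10 tested cardiac markers had a fitted change below 0 there, with a median log2 change of -0.79. Of these markers 0 were called by limma, 1 having an unadjusted p below 0.05. Their summed normalized count was 182 to 1760 in air with a median of 550, 206 to 1633 in low smoke with a median of 331, and 209 to 1521 in high smoke with a median of 1006. Over the 22 libraries the r of the 9 genes with the log2 of that sum lay between -0.13 for Tsc22d3 and 0.26 for Hif3a, and none passed (adjusted permutation p = 0.628 for Hif3a). Of 13 mitochondrial genome transcripts, 5 fell in high smoke against air, where 7.05% of all genes fell. Among the 5 were Mt-atp6, lower by 1.02, and Mt-nd2, lower by 0.95 on the log2 scale (adjusted p = 0.00478 and 0.00335 in limma). Without high smoke replicates 1, 3 and 7 these were at -0.59 and -0.53 (adjusted p = 0.174 and 0.139 in limma). None of the 13 then passed, where 124 of all genes did.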

How the data were processed

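RNA from 22 lung libraries was analysed. Per the submitters' processing notes, the authors used STAR 2.7.3a, the rat build rn6, Partek and DESeq2. The deposited values are a signal in which each library's gene counts were scaled by its own size factor, called normalized counts here. Rescaled to reads, 80.6% to 82.6% of entries below 200 were whole to within 0.02, so no count model was used. The labels list 23 samples. A high smoke sample marked as of poor quality has no column and was not analysed here, and an air sample was removed before sequencing per the labels' protocols. Read equivalents are each library total divided by its value of 1 read.

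Values were taken as log2(value + 1), and genes with a mean of at least 10 were tested (14414). Limma 3.58.1 with an intensity trend in R 4.3.3 fitted the 3 groups together, two-sided, with Benjamini-Hochberg adjustment over all genes tested and a threshold of 0.05. Genes with few reads, such as Hif3a, are the least precise at this depth, and no counting interval was computed. Correlations used two-sided permutation tests with 100000 resamples, adjusted over each family. Other pseudocounts, filters, scalings, weights and tests, and leaving out libraries, were alternatives. The model was checked on simulated data.

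The genes and lists were chosen with earlier results of these data known. All 9 genes are named. From each list, up to 4 genes past the threshold per comparison were named by size of change, and the 3 genes most like each of the 9, and 10 like the target mean, by r. A few genes these rules select are not reported here. Mitochondrial genes beyond those named, and cell markers, are given as counts. The correlations and their alternatives were chosen after the values were seen. Coordinates are the table's starts and its stops less 1, since 26 of 29 microRNA hairpins had a stop minus start equal to their RefSeq length.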

Additional observations from a re-analysis of the deposited data

Results flagged for a closer look

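Of 27 sets of values looked at (9 genes in 3 groups), 2 held a rat far from the others of its group by Dixon's gap test at 95%, and chance flags about 1 in 20 groups. Both concern Ddit4, the gene for the mTORC1 inhibitor REDD1. Low smoke replicate 7 had a normalized count of 123 where the next highest of the 8 rats had 87.4, a gap of 0.572 of the group's range against a critical value of 0.526. High smoke replicate 7 had 182 where the next of the 7 rats had 120, a gap of 0.594 against 0.568. Without high smoke replicate 7 the log2 change of Ddit4 in high smoke against air was -0.07 in place of 0.07, and its difference between high and low smoke was 0.28 in place of 0.42. Without low smoke replicate 7 that difference was 0.52.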

How the results depend on the processing

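Under 296 alternative values per comparison, 0 of the 9 genes were called, with smallest adjusted p of 0.0522 (Klf9, high smoke against air, equal library totals), 0.412 and 0.0862, and the fitted sign was kept in 285, 279 and 285. Hif3a has no value with a mean of at least 50. No paired analysis was possible because nothing in the labels ties a rat of one group to a rat of another. All genes called in high smoke against air numbered 1351 with only those 2 groups fitted, 746 by the rank-sum test, 124 without high smoke replicates 1, 3 and 7, and 1453 to 2863 leaving out 1 library, where high smoke replicates 1, 3 and 7 gave 1453, 1461 and 1550. For low smoke against air they numbered 1 without those 3 and 0 to 2 leaving out 1 library. For high against low smoke (977) they numbered 183 by rank sums, 0 without those 3 and 29 to 1651 leaving out 1 library. Other targets called in high smoke against air (4) numbered 2 with only the 2 groups, 1 by rank sums, 0 without those 3 and 2 to 6 leaving out 1 library. For high against low smoke (3) they numbered 1 with no filter, 1 with equal totals, 1 with array weights, 1 by rank sums, 0 without those 3 and 0 to 6 leaving out 1 library.

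The fitted signs of several genes turned, among them Zbtb16 with the largest change in high smoke against air, and the cause was not tested. Between high smoke and air, Nr3c1 was at -0.0015 with equal totals, -0.0020 with array weights and -0.0070 without the 3 libraries. Ddit4 was at -0.0025 with equal totals and -0.19 without the 3, and Zbtb16 at -0.0555 with array weights. Leaving out 1 library gave -0.30 to 0.11 for Hif3a, -0.068 to 0.18 for Ddit4 and -0.0053 to 0.52 for Zbtb16. Between low smoke and air, equal totals gave -0.0051 for Nr3c1 and -0.0155 for Sgk1, and array weights gave -0.0149 for Nr3c1 and -0.21 for Zbtb16. Leaving out 1 library gave -0.036 to 0.0837 for Nr3c1, -0.1148 to 0.0372 for Fkbp5, -0.15 to 0.37 for Zbtb16 and -0.0178 to 0.0529 for Sgk1. Between high and low smoke, Klf9 was at -0.0266 with equal totals, and without the 3 libraries Nr3c1 was at -0.0371, Klf9 at -0.0061 and Fkbp5 at 0.0513. Leaving out 1 library gave -0.026 to 0.0642 for Klf9, -0.1035 to 0.0002 for Fkbp5 and -0.11 to 0.41 for Zbtb16. Leaving out 1 library, the r of Fkbp5 with Zbtb16 was 0.665 to 0.749 and that of Dusp1 with the immediate early mean 0.938 to 0.962.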
